A study of Mus musculus with 12 samples.

Results

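A set of 9 genes of arginine, creatine and polyamine metabolism were followed in bulk RNA-seq of mouse kidney outer cortex: Gatm, Gamt, Ass1, Asl, Arg2, Oat, Odc1, Sat1 and Smox. They were chosen by name, as enzymes of these pathways, and are 9 of the 55450 genes in the count table. All 9 passed the filter on low counts that left 16094 genes for testing. The 12 libraries form 4 groups of 3 FVB/N mice at 12 weeks of age. C16-treated Tg26 mice carried the HIV-1 transgene and received C16 at 10 µg/kg by injection into the peritoneum, 3 times a week from week 6. Tg26 mice were hemizygous for the same transgene and are labelled only as controls. C16-treated WT mice lacked the transgene and had the same C16 regimen, and WT mice, again labelled only as controls, had neither. Whether the control mice received the DMSO vehicle was not stated in the sources used here. Tg26 is a model of HIV-associated nephropathy whose transgene holds HIV-1 regulatory and accessory genes, and C16 is an oxoindole/imidazole inhibitor of PKR, the kinase that senses double-stranded RNA. The comparisons ask how the HIV-1 transgene changed the kidney transcriptome and what PKR inhibition changed in each genotype.

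Arginine stands at a branch point in the kidney. The proximal tubule takes up citrulline and turns it into arginine through argininosuccinate synthase (Ass1) and argininosuccinate lyase (Asl), and the kidney is a main source of arginine for the rest of the body. Arginine then passes to creatine synthesis, which starts with Gatm in the kidney and is completed by Gamt, mostly in the liver, or is split by an arginase to urea and ornithine. Arg2 is the mitochondrial arginase. Ornithine is turned into glutamate semialdehyde by Oat or into putrescine by Odc1, the first step of polyamine synthesis. Sat1 acetylates spermidine and spermine, and Smox oxidises spermine and releases hydrogen peroxide.

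The libraries held 19877877 to 27000388 counts, and levels are given as CPM, the counts of a gene relative to the scaled library total, after TMM scaling, with factors of 0.901 to 1.22. The tissue label was checked against markers. The 15 proximal tubule markers summed to 30504 to 32115 CPM in WT kidneys and 6 podocyte markers to 353 to 395 CPM. Summed Y-linked genes exceeded Xist in all 12 libraries. Tg26 replicate 1 stood apart from the other libraries, with the highest TMM factor and 5189 CPM of 9 summed tubular injury markers, against 1476 and 1753 CPM in the other Tg26 kidneys and 413 to 633 CPM in WT kidneys. For the genes called between Tg26 and WT kidneys, values without it are given too. Whether mice of a group shared a litter was not stated.

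Of the 9 genes, Ass1, Odc1 and Gatm had the highest levels per kilobase of exon in every group and Smox the lowest. The median level per kilobase of Ass1 was 975 CPM in C16-treated Tg26 kidneys, 603 CPM in Tg26 kidneys, 1004 CPM in C16-treated WT kidneys and 1061 CPM in WT kidneys. For Smox it was 1.47 CPM in C16-treated Tg26 kidneys, 2.20 CPM in Tg26 kidneys, 1.09 CPM in C16-treated WT kidneys and 1.19 CPM in WT kidneys. Together the 9 genes took 0.315% to 0.421% of all counts in Tg26 kidneys, against 0.456% to 0.529% in WT kidneys. The share was 0.520% to 0.565% in C16-treated Tg26 kidneys and 0.526% to 0.559% in C16-treated WT kidneys. Ass1 and Odc1 weigh most in this share, so it does not describe the 9 genes alike. Their mean levels were 1263 and 725 CPM in Tg26 kidneys, against 2645 and 1524 CPM in WT kidneys.

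**Figure D1:**
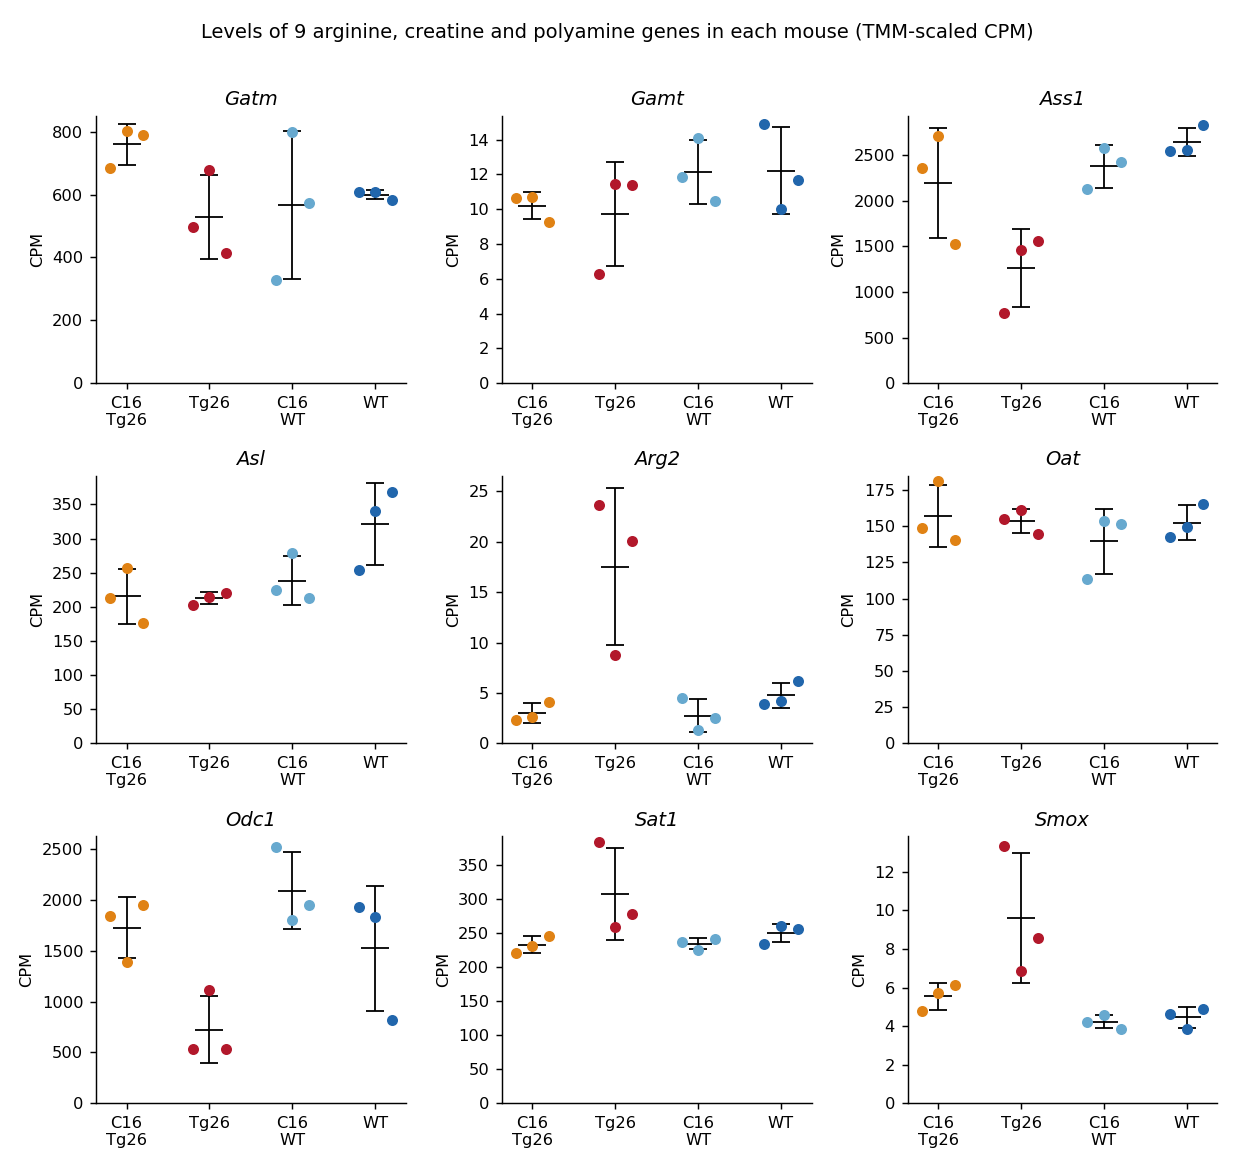
TMM-scaled CPM of each gene in each mouse, by group. Points are mice, the long line is the mean and the bars are 1 SD (n = 3). Tg26 kidneys sit above WT kidneys for Arg2 and Smox without overlap and below them for Ass1 and Asl, and Odc1 overlaps, with 1 WT kidney among the Tg26 kidneys.

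The start-site regions of the genes that differed between Tg26 and WT kidneys are shown where the RefSeq promoter table holds them (7 of the 9 genes matched, and Arg2 and Asl are named only). Each is 300 bases on GRCm38.p6, from 250 bases before to 50 after the start, with capitals marking a GC box (GGGCGG) on either strand or, in Ass1, also an E-box (CACGTG). The windows are Ass1 at chr2:31470020-31470319, Odc1 at chr12:17544623-17544922 and Smox at chr2:131491612-131491911, all on the plus strand. The starts are those of RefSeq and differ from the gene bounds given below. The Smox window lies wholly inside those bounds, which begin at 131491496. Smox has 17 annotated transcripts, and other starts were not examined.
Ass1: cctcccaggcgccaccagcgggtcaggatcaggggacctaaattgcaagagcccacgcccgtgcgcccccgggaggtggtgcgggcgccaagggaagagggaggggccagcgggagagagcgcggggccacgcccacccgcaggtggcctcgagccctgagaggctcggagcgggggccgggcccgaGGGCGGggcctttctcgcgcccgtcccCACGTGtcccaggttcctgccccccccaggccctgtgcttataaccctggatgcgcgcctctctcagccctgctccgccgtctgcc
Odc1: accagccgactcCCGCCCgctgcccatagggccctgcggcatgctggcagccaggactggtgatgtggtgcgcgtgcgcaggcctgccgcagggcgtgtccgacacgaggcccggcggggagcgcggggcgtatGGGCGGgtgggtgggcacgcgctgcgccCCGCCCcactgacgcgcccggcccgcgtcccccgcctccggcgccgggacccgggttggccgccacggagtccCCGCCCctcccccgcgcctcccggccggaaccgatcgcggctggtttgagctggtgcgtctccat
Smox: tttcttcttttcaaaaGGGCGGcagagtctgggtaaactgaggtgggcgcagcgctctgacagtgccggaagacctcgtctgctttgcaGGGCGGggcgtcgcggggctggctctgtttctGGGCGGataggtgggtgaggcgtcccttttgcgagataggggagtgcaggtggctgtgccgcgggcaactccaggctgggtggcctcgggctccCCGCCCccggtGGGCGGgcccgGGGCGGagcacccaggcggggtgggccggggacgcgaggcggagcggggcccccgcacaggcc
A GC box was found 1 time in Ass1, 4 times in Odc1 and 6 times in Smox, and 35.7% of 32851 promoters of this length hold at least 1. An E-box is held by 7.15% of them. No match to AP-1 (TGANTCA, in 7.81% of promoters), STAT (TTCNNNGAA, 8.30%), a TATA box (TATAAA, 13.6%) or NF-kB (8.46%) was found in these windows, which says only that these letters are not there.

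Between Tg26 and WT kidneys, 5 of the 9 genes passed the test. The arginase Arg2 and the spermine oxidase Smox rose, and the arginine synthesis genes Ass1 and Asl and the polyamine synthesis gene Odc1 fell. Over all 16094 genes, 15.6% were called higher (2518 genes) and 10.6% lower (1703 genes). With library sizes alone in place of TMM, 5259 genes were called higher and 267 lower, and the median change of all genes was 0.29. Groups did not overlap for 4 of the 9 genes, all but Odc1 of those called, against 39.6% of all genes. The median change over the 9 genes was -0.18, against -0.01 over all genes.

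Ass1 (chromosome 2, 31470207 to 31520672, mm10) and Asl (chromosome 5, 130011258 to 130029247) encode the consecutive enzymes of arginine synthesis. Ass1 was at 774, 1456 and 1560 CPM in Tg26 kidneys, against 2550, 2561 and 2825 CPM in WT kidneys. Every Tg26 kidney was below every WT kidney. Ass1 fell by 1.07 ± 0.26 on the log2 scale (SE, edgeR quasi-likelihood, adjusted p = 0.0112). Asl was at 202, 215 and 221 CPM in Tg26 kidneys, against 255, 341 and 369 CPM in WT kidneys. The groups again did not overlap, with WT replicate 1 nearest to Tg26, and Asl fell by 0.60 ± 0.17 (edgeR adjusted p = 0.0214). Ass1 was also called lower without Tg26 replicate 1, at -0.82 ± 0.19 (edgeR adjusted p = 0.0154). The Asl call was lost without Tg26 replicate 1 (edgeR adjusted p = 0.0587), WT replicate 2 (0.0717) or WT replicate 3 (0.0795). It was also lost with library sizes alone, at -0.29, or -0.58 once the 0.29 shift of the typical gene was taken off, and in a fit of these groups alone (adjusted p = 0.0611). A near-identical copy of Ass1, Gm5424, held 0.722% to 0.958% of their summed counts, and the call was the same with it added.

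Arg2 (chromosome 12, 79130777 to 79156301) is a low-abundance transcript. It was at 23.7, 8.77 and 20.1 CPM in Tg26 kidneys, against 3.89, 4.22 and 6.17 CPM in WT kidneys. All 3 Tg26 kidneys exceeded all 3 WT kidneys, and replicate 2 was the nearest to them. Arg2 rose by 1.88 ± 0.43 on the log2 scale (edgeR adjusted p = 0.0097), and by 1.59 without Tg26 replicate 1 (adjusted p = 0.0394). The ratio of Ass1 to Arg2 counts within a library, which no scaling between libraries affects, was 32.7, 166 and 77.6 in Tg26 kidneys, against 655, 607 and 458 in WT kidneys. Every Tg26 ratio was below every WT ratio, which follows from the separation of both genes above and adds no separate support. The exons of Arg2 overlap Vti1b on the opposite strand by 285 bases, and whether the counting used strand was not stated in the sources used here. Vti1b did not pass the test (-0.03, adjusted p = 0.857).

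Odc1 (chromosome 12, 17544794 to 17551505) was at 530, 1109 and 536 CPM in Tg26 kidneys, against 1930, 1827 and 817 CPM in WT kidneys. WT replicate 3 lay among the Tg26 kidneys, so the groups overlapped. Odc1 fell by 1.07 ± 0.35 on the log2 scale (edgeR adjusted p = 0.0416). The call was lost without Tg26 replicate 1 (adjusted p = 0.178), Tg26 replicate 3 (0.108), WT replicate 1 (0.128) or WT replicate 2 (0.126). It was also lost with library sizes alone (-0.78, or -1.08 relative to the typical gene, adjusted p = 0.0931), with no filter (0.122) and in a fit of these groups alone (0.121). The 4 near-identical pseudogene copies of Odc1 held 5.85% to 7.03% of the summed counts, and adding them left the call unchanged. Kap, an androgen-responsive kidney gene, was at 7326, 16867 and 14610 CPM in Tg26 kidneys and 27270, 24088 and 22734 CPM in WT kidneys. Kap too was lowest among WT kidneys in replicate 3, but there it stayed above every Tg26 kidney. The 5 S3 segment markers of the proximal tubule summed to 1139, 2345 and 2012 CPM in Tg26 kidneys. In WT kidneys they summed to 3363, 2732 and 2011 CPM, also lowest in replicate 3. Of these markers, 1 was called higher and 0 lower in Tg26 kidneys. Any link of Kap or these markers to the Odc1 values was not tested.

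Smox (chromosome 2, 131491496 to 131525922) was at 13.4, 6.88 and 8.58 CPM in Tg26 kidneys, against 4.62, 3.84 and 4.91 CPM in WT kidneys. Every Tg26 kidney exceeded every WT kidney, and Tg26 replicate 1 was the highest. Smox rose by 1.11 ± 0.23 (edgeR adjusted p = 0.0050) and by 0.78 without Tg26 replicate 1 (0.0127). Sat1 (chromosome X, 155213132 to 155216449) was at 384, 259 and 278 CPM in Tg26 kidneys, against 235, 260 and 256 CPM in WT kidneys. The groups overlapped, and the change of 0.30 ± 0.13 did not pass (edgeR adjusted p = 0.121). It was 0.094 without Tg26 replicate 1 (adjusted p = 0.503), passed without Tg26 replicate 2 (0.40, adjusted p = 0.0443), and passed with library sizes alone (0.62, adjusted p = 0.0127), where it was 0.33 relative to the typical gene. The ratio of Odc1 to Smox counts was 39.7, 161 and 62.5 in Tg26 kidneys, against 417, 475 and 166 in WT kidneys. The lowest WT ratio lay just above the highest Tg26 ratio. This ratio joins a gene that fell with a gene that rose, so it adds no separate support.

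Gatm, Gamt and Oat did not pass the test. Gatm, the first enzyme of creatine synthesis, was at 496, 678 and 416 CPM in Tg26 kidneys, against 607, 608 and 583 CPM in WT kidneys (-0.18 ± 0.26, edgeR adjusted p = 0.654). The Tg26 values straddled the tight WT values. Gamt, the methyltransferase that completes creatine, was at 6.26, 11.5 and 11.4 CPM in Tg26 kidneys, against 14.9, 10.0 and 11.7 CPM in WT kidneys (-0.33 ± 0.22, adjusted p = 0.301). Oat was at 155, 161 and 145 CPM in Tg26 kidneys, against 142, 150 and 166 CPM in WT kidneys (0.01 ± 0.13, adjusted p = 0.958). Over these 3 genes the differences were within the spread of the mice.

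**Figure D2:**
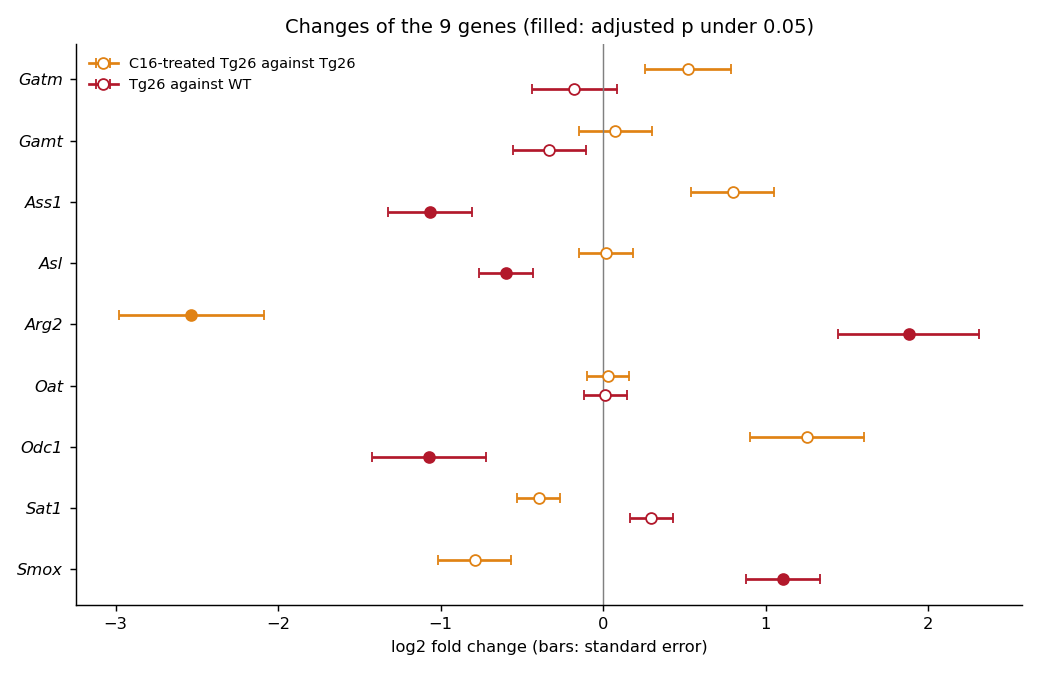
log2 fold changes of the 9 genes with their standard errors in both main comparisons (n = 3 mice per group). Filled points passed an adjusted p under 0.05. Arg2 was called higher in Tg26 kidneys and lower with C16, and Ass1, Asl, Odc1 and Smox were called between Tg26 and WT kidneys alone.

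Markers of some cell types moved beside these genes. In bulk RNA, fewer cells of a type and less RNA per cell cannot be told apart. The 15 proximal tubule markers summed to 12116 to 22003 CPM in Tg26 kidneys, against 30504 to 32115 CPM in WT kidneys, with 10 of 15 lower. The 12 macrophage markers summed to 787 to 1289 CPM in Tg26 kidneys, against 111 to 143 CPM in WT kidneys, with 12 of 12 higher, and 7 of 7 fibroblast markers were higher. In other lists few markers were called. Those called higher were 1 of 6 podocyte, 1 of 6 endothelial, 1 of 7 T and B cell and 1 of 5 S3 segment markers. Of 8 loop of Henle, distal tubule and collecting duct markers 1 was lower, and of 5 red blood cell markers 0 were called. No list had a marker at 0. The part of these shifts in the member results was not tested.

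In C16-treated Tg26 against Tg26 kidneys, Arg2 alone of the 9 genes passed the test and fell. Over all genes 2.58% were called lower (416 genes) and 0.764% higher (123 genes), against 718 lower and 80 higher with library sizes alone, where the median of all genes was -0.14. Groups did not overlap for 5 genes (Gatm, Arg2, Odc1, Sat1 and Smox), against 27.6% of all genes. Arg2 was at 2.28, 2.61 and 4.15 CPM in C16-treated Tg26 kidneys, against 23.7, 8.77 and 20.1 CPM in Tg26 kidneys. Each C16-treated kidney was below each Tg26 kidney, and Arg2 fell by 2.53 ± 0.45 (edgeR adjusted p = 0.0305). The call was lost without Tg26 replicate 1 (0.0766), C16-treated Tg26 replicate 1 (0.150) or C16-treated Tg26 replicate 2 (0.108), and in a fit of these groups alone (0.130).

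The other members did not pass in this comparison. Odc1 was at 1843, 1391 and 1946 CPM in C16-treated Tg26 kidneys, against 530, 1109 and 536 CPM in Tg26 kidneys (1.25 ± 0.35, edgeR adjusted p = 0.0646). Smox was at 4.80, 5.71 and 6.15 CPM in C16-treated Tg26 kidneys, against 13.4, 6.88 and 8.58 CPM in Tg26 kidneys (-0.79 ± 0.22, 0.0648). These groups did not overlap. Sat1 was at 222, 232 and 246 CPM in C16-treated Tg26 kidneys, against 384, 259 and 278 CPM in Tg26 kidneys (-0.40 ± 0.13, 0.0951). Ass1 was at 2355, 2708 and 1527 CPM in C16-treated Tg26 kidneys, against 774, 1456 and 1560 CPM in Tg26 kidneys (0.80 ± 0.26, 0.0853). The third C16-treated kidney lay within the Tg26 range of Ass1. Gatm was at 685, 803 and 791 CPM in C16-treated Tg26 kidneys, against 496, 678 and 416 CPM in Tg26 kidneys (0.52 ± 0.26, 0.237). Asl, Gamt and Oat had log2 changes of 0.02, 0.07 and 0.03. Without Tg26 replicate 1 the changes were 1.07 for Odc1 (adjusted p = 0.260), -0.47 for Smox (0.238), -0.20 for Sat1 (0.275) and 0.54 for Ass1 (0.213). Without Tg26 replicate 2, Odc1 (1.70, adjusted p = 0.0241), Smox (-0.98, 0.0268) and Sat1 (-0.51, 0.0407) passed. DESeq2 called Odc1, Arg2, Sat1, Smox and Ass1.

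The 15 proximal tubule markers summed to 23895 to 29243 CPM in C16-treated Tg26 kidneys, against 12116 to 22003 CPM in Tg26 kidneys, with 1 of 15 called higher. The 12 macrophage markers summed to 306 to 626 CPM in C16-treated Tg26 kidneys, against 787 to 1289 CPM in Tg26 kidneys, with 1 of 12 called lower. Their part in the member results was not tested. The third C16-treated kidney, the lowest of its group in Ass1, also had the lowest proximal tubule sum of its group.

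**Figure D3:**
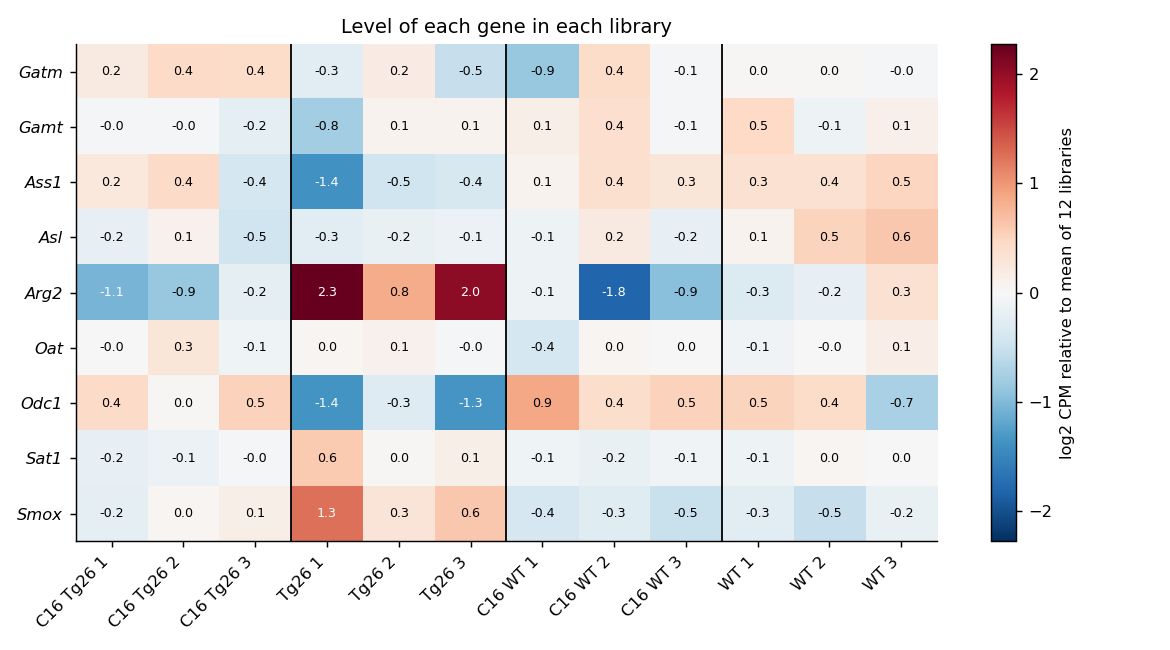
log2 CPM of each gene relative to its mean over the 12 libraries. Columns are the 12 mice in 4 groups, and red is above and blue below the mean. Tg26 replicate 1 is the lowest library for Ass1, Gamt and, just below Tg26 replicate 3, Odc1. It is the highest for Arg2, Sat1 and Smox, and WT replicate 3 is low for Odc1.

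In C16-treated WT against WT kidneys, 0 of the 9 genes passed (0.0% of all genes), and 1, Asl, had an unadjusted p under 0.05 (-0.43 ± 0.17). Asl was at 212 to 279 CPM in C16-treated WT kidneys, against 255 to 369 CPM in WT kidneys. It was at 202 to 221 CPM in Tg26 kidneys and 177 to 257 CPM in C16-treated Tg26 kidneys. The C16-treated WT range of Asl thus overlapped that of every other group. Of all 16094 genes, 1190 had an unadjusted p under 0.05 here. DESeq2 called 0 of the 9 as well. Arg2 was at 4.47, 1.32 and 2.48 CPM in C16-treated WT kidneys, against 3.89, 4.22 and 6.17 CPM in WT kidneys, and these ranges overlapped. Odc1 was at 2516, 1802 and 1946 CPM in C16-treated WT kidneys, against 1930, 1827 and 817 CPM in WT kidneys. Here too the ranges overlapped. Of the groups, it was in C16-treated WT kidneys that Gatm varied most, at 328, 798 and 574 CPM.

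In C16-treated Tg26 against C16-treated WT kidneys, 0 of the 9 genes passed (0.677% of all genes) and DESeq2 called 0. An unadjusted p under 0.05 was found for 0 of the 9, against 1477 of all 16094 genes. Smox was at 4.80, 5.71 and 6.15 CPM in C16-treated Tg26 kidneys, against 4.24, 4.59 and 3.88 CPM in C16-treated WT kidneys (0.39 ± 0.23, edgeR adjusted p = 0.720). Ass1 was at 2355, 2708 and 1527 CPM in C16-treated Tg26 kidneys, against 2125, 2578 and 2423 CPM in C16-treated WT kidneys. For the interaction of genotype and C16, 0 of the 9 passed (0.0% of all genes) and DESeq2 called 0. Arg2 (-1.76 ± 0.63, edgeR adjusted p = 0.326), Ass1 (0.95 ± 0.36, 0.342) and Smox (-0.72 ± 0.32, 0.390) had unadjusted p under 0.05, as did 2027 of all 16094 genes. The C16 effect was therefore not shown to differ between genotypes for any member. Tg26 kidneys enter both main comparisons, so their values are shared.

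Of 54 other genes of these pathways, 47 were tested. In Tg26 against WT kidneys 9 rose and 9 fell, 29 did not pass and the median change was -0.13. These counts stand beside 15.6% of all genes called higher, 10.6% called lower and a median change of -0.01. The 7 untested genes, Ckm, Ckmt2, Nags, Otc, Slc25a2, Slc7a3 and Oaz3, had at most 17 counts in a library. The 4 tested creatine transport and creatine kinase genes did not pass. Among 10 urea cycle and other arginine genes, 3 rose and 3 fell. Among 7 cationic amino acid transport genes 3 rose and 1 fell, among 7 proline and glutamate semialdehyde genes 1 rose and 2 fell, and among 19 polyamine genes 2 rose and 3 fell.

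Arginine uptake and nitric oxide genes were among those that rose. Slc7a1 and Slc7a2 encode cationic amino acid transporters. Slc7a1 was at 19.9, 10.3 and 9.68 CPM in Tg26 kidneys, against 4.35, 4.18 and 4.24 CPM in WT kidneys (1.64 ± 0.29, edgeR adjusted p = 0.0023). Slc7a2 was at 15.2, 8.46 and 5.60 CPM in Tg26 kidneys, against 3.16, 2.41 and 1.40 CPM in WT kidneys (2.07 ± 0.35, 0.0019). Slc7a6, a transporter that exchanges arginine, rose by 1.21. Nos3, the endothelial nitric oxide synthase, rose by 0.93, and Ddah2, which breaks down an inhibitor of these synthases, by 1.06. Nos2, the inducible synthase, rose by 2.19, at 0.736 to 2.42 CPM in Tg26 kidneys and 0.193 to 0.507 CPM in WT kidneys, so this change rests on few counts. Ddah1, related to Ddah2, changed in the opposite direction and fell by 0.62, and Slc3a1, a partner of a transporter of dibasic amino acids and cystine, fell by 0.63. Agxt2 fell by 0.54 and Slc25a15, the mitochondrial ornithine carrier, by 0.45.

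In proline metabolism Aldh18a1, which makes glutamate semialdehyde for proline synthesis, rose by 2.32 ± 0.49 (edgeR adjusted p = 0.0060), and by 1.60 without Tg26 replicate 1. Prodh and Aldh4a1, which break proline down, fell by 0.79 and 0.67. Among the polyamine genes Aoc1, a diamine oxidase that degrades putrescine and histamine, rose the most of the 47 tested. Aoc1 was at 131, 48.7 and 40.8 CPM in Tg26 kidneys, against 1.74, 2.20 and 1.3 CPM in WT kidneys. The groups were far apart, and Aoc1 rose by 5.39 ± 0.68 (edgeR adjusted p = 6.1e-04), or by 4.66 ± 0.59 without Tg26 replicate 1, its highest library (adjusted p = 0.0014). Atp13a2, a polyamine transporter of lysosomes, rose by 0.59. Sat2 and Oaz2, an antizyme that targets Odc1 protein for breakdown, fell by 0.71 and 0.37, and Sms, the spermine synthase, fell by 0.36 (chosen after its value was seen).

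Without Tg26 replicate 1 the other rises were 1.22 for Slc7a1, 1.59 for Slc7a2, 0.97 for Slc7a6, 0.83 for Nos3, 0.78 for Ddah2, 1.74 for Nos2 and 0.44 for Atp13a2, and each still passed. Ddah1 (-0.44), Slc3a1 (-0.41), Slc25a15 (-0.34), Prodh (-0.65), Aldh4a1 (-0.48) and Sat2 (-0.60) also still passed without it. Calls that were lost without 1 library were Ddah1 without WT replicate 1 (edgeR adjusted p = 0.0512), Prodh (0.0501) and Aldh4a1 (0.0540) without WT replicate 2, and Agxt2 without Tg26 replicate 1 (0.114), WT replicate 2 (0.0933) or WT replicate 3 (0.125). Slc3a1 was lost without WT replicate 1 (0.0657), 2 (0.0570) or 3 (0.0930), and Oaz2 without Tg26 replicate 1 (0.0538), WT replicate 1 (0.0615) or WT replicate 2 (0.0638). Sms was lost without Tg26 replicate 1 (0.146) or 3 (0.0508) or without WT replicate 1 (0.128), 2 (0.0635) or 3 (0.104), and with no filter (0.0611). With library sizes alone the calls of Slc25a15 (-0.15), Ddah1 (-0.32), Agxt2 (-0.24), Slc3a1 (-0.34), Oaz2 (-0.07) and Sms (-0.06) were lost. Relative to the 0.29 shift of the typical gene under that scaling these were -0.44, -0.62, -0.54, -0.64, -0.36 and -0.35. The calls of these 6 genes, Prodh and Aldh4a1 were lost in a fit of these groups alone.

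With C16 in Tg26 mice, 1 of the 47 genes passed, against 2.58% of all genes called lower and 0.764% higher. It was Slc7a6, which fell by 0.998 ± 0.215 (edgeR adjusted p = 0.0374). This call was lost without Tg26 replicate 1 (0.119) or without C16-treated Tg26 replicate 1 (0.165), 2 (0.109) or 3 (0.0666), and in a fit of these groups alone (0.134). Slc7a1 (-1.11, adjusted p = 0.0521) and Slc7a2 (-1.18, 0.0648) did not pass. Aoc1 was at 16.2, 31.3 and 41.8 CPM in C16-treated Tg26 kidneys, against 131, 48.7 and 40.8 CPM in Tg26 kidneys, which overlapped (-1.31 ± 0.54, 0.158). It lay above the 6.89, 1.85 and 1.92 CPM of C16-treated WT kidneys, a difference of 3.06 ± 0.62 that did not pass (0.0579). None of the 47 passed in C16-treated WT against WT kidneys, in C16-treated Tg26 against C16-treated WT kidneys or for the interaction. The shares called over all genes were 0.0%, 0.677% and 0.0%.

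**Figure D4:**
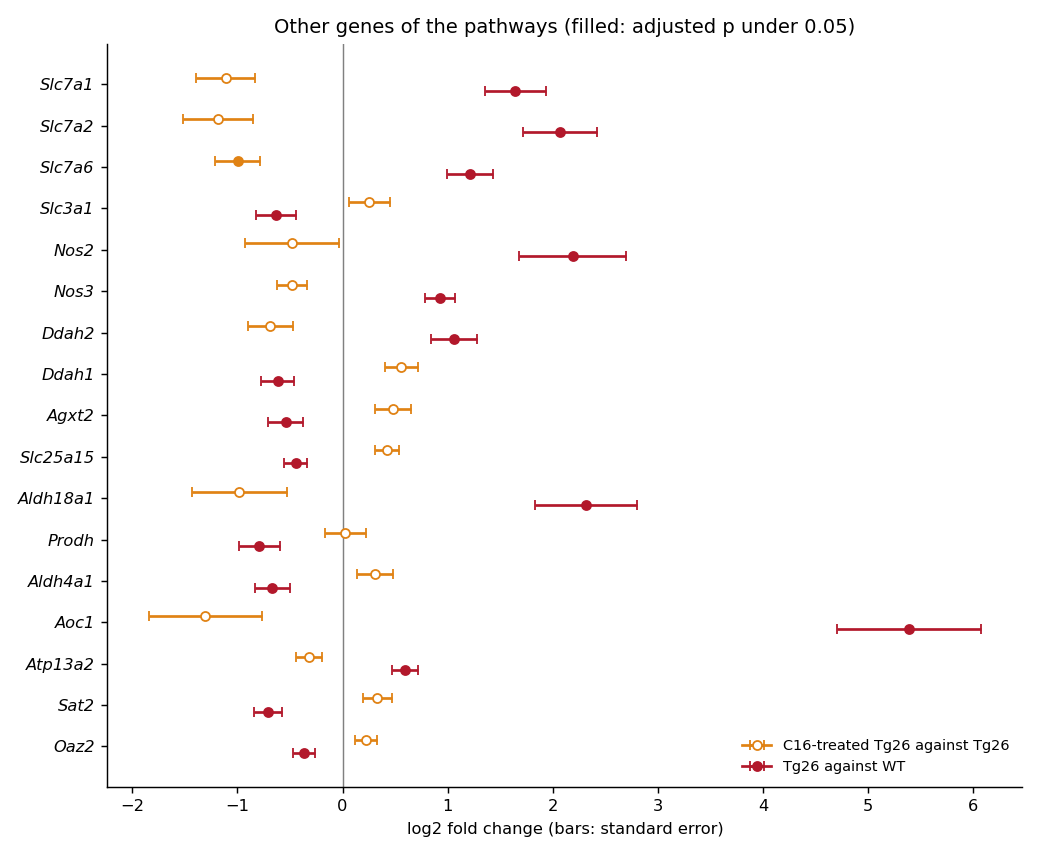
log2 fold changes of 17 other genes of arginine transport, nitric oxide, proline and polyamine metabolism, with standard errors (n = 3 mice per group). Filled points passed an adjusted p under 0.05. The 17 genes were drawn because they passed in Tg26 against WT kidneys. Sms and the 29 tested genes that did not pass are not drawn. Aoc1 had the largest rise, and Slc7a6 alone passed with C16 in Tg26 kidneys.

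Over the 12 libraries the genes whose pattern lay closest to each called member were found by the root mean squared difference in log2 CPM, each relative to its own mean, among 12593 genes. They were Vwce and Abat for Ass1 (0.14 each), Marc2 (0.10) and Cryl1 (0.11) for Asl, Axin2 (0.50) and Masp1 (0.51) for Arg2, and Kank2 (0.13) and Rell1 (0.14) for Smox. For Odc1 they were Cckar (0.14) and Erc2 (0.20). Cckar was at 27.9, 55.1 and 31.1 CPM in Tg26 kidneys, against 86.7, 79.1 and 40.7 CPM in WT kidneys. It was picked for likeness to Odc1 in libraries that include WT replicate 3, so its low value there is no separate support. The distance to the nearest gene was largest for Arg2. Arg2 also varied most about its own mean, with a root mean square of 1.17 on the log2 scale. The same measure was 0.73 for Odc1, 0.53 for Ass1, 0.50 for Smox and 0.30 for Asl. The distance is not scaled to this variation, so it does not show that the pattern of Arg2 was less shared.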

How the data were processed

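The authors trimmed paired reads from stranded poly(A) libraries with Cutadapt (1.18), mapped them with STAR (2.7.0f) to mm10 and deposited RSEM (1.3.1) expected counts per gene of Ensembl 96, not normalized. The deposited values were whole, so rounding changed none. The study compared groups with DESeq2. The single-nucleus libraries were not used here.

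Genes kept by filterByExpr (count of about 10, total of 15) were tested with edgeR's quasi-likelihood test (4.0.16, R 4.3.3) over all 12 libraries, with TMM factors, no covariate and Benjamini-Hochberg adjustment over 16094 genes, called at 0.05. CPM use TMM-scaled totals, and relative log2 CPM a prior count of 2. With no further source of replicates stated, p-values measure the spread between these 3 mice per group. The members and lists were chosen with earlier results of these data known. From the called pathway genes, those with the 4 smallest adjusted p per list and any call opposite to most were named. Alternatives were DESeq2 (1.42.0), RLE factors, library sizes only, other filters, the replicate number as a block, fits of the compared groups alone, and each library left out in turn. Adding near-identical copies (BLAST 2.17.0, at least 95% identity over at least 80% of the copy) was chosen after seeing the data. The fit was tested on simulated data. Promoters are from RefSeq. Figures used matplotlib (3.10.9).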

Additional observations from a re-analysis of the deposited data

How the results depend on the processing

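The count of members called in Tg26 against WT kidneys was 4 or 5 under DESeq2, RLE factors, library sizes only, the other filters, the replicate block and added copies, and 3 with only the groups compared (2068 genes). Arg2, Smox and Ass1 were called under each of these. Leaving out 1 library gave 3 to 6 members and 2491 to 4807 genes. In C16-treated Tg26 against Tg26 kidneys DESeq2 called 5 members and 1912 genes, against 0 members and 0 genes with the replicate block or with only the groups compared, and leaving out 1 library gave 0 to 4 members and 0 to 1473 genes. The count was 0 genes without C16-treated Tg26 replicate 1 or 2 and 10 without Tg26 replicate 1. In C16-treated WT against WT kidneys 34 genes were called by DESeq2 and 1 with no filter. In C16-treated Tg26 against C16-treated WT kidneys the counts were 379 genes by DESeq2, 38 with the replicate block and 11 to 235 without 1 library. For the interaction DESeq2 called 143 genes. No member was called in the last 3 comparisons in any of these fits. The cause of these differences was not tested.

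With library sizes only, the sign turned for Gatm in Tg26 against WT kidneys (0.13), for Gamt (-0.043), Asl (-0.12) and Oat (-0.11) in C16-treated Tg26 against Tg26 kidneys, for Gamt in C16-treated WT against WT kidneys (0.057), for Sat1 in C16-treated Tg26 against C16-treated WT kidneys (0.10), and for Gamt (-0.10) and Oat (-0.048) in the interaction. None of these was called, and all 8 kept their sign relative to the median of all genes, which that scaling moved by between -0.19 and 0.29. Without 1 library the sign of uncalled changes also turned. Oat ranged from -0.039 to 0.071 in Tg26 against WT kidneys. In C16-treated Tg26 against Tg26 kidneys Gamt ranged from -0.16 to 0.21, Asl from -0.13 to 0.14 and Oat from -0.085 to 0.10. In C16-treated WT against WT kidneys Gatm ranged from -0.41 to 0.19, Gamt from -0.13 to 0.16 and Smox from -0.17 to 3.7e-05. In C16-treated Tg26 against C16-treated WT kidneys Ass1 ranged from -0.30 to 0.091, Arg2 from -0.20 to 0.66 and Sat1 from -0.050 to 0.025. Gamt ranged from -0.16 to 0.22 in the interaction. Of 927 gene values over all alternatives, 840 kept their direction and their side of the threshold, 48 lost a call, 9 gained a call and 30 turned sign. Most of the 927 belong to changes that were not called in the main fit and so had no call to lose. With C16 in Tg26 mice, the Arg2 call held in 3 of 6 fits without 1 library and in 6 of 8 other alternatives. The Slc7a6 call held in 2 of 6 and 6 of 8.

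Replicate numbers did not pair the mice: deviations from the group means correlated at -0.23 to 0.23 over 18 pairs with the same number and at -0.34 to 0.34 over 36 others. With the replicate block 4 members and 4051 genes were called in Tg26 against WT kidneys, without Odc1 (-1.05, edgeR adjusted p = 0.0519), and Arg2 (-2.45, 0.0504) and Slc7a6 (0.0675) were not called with C16. The planned sex term could not be fitted, since all 12 libraries fell in 1 class. Arg2 had 85 to 128 counts and Smox 91 to 102 counts in a WT library, which limits the precision of their levels.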
